A study of Mus musculus with 22 samples.

Results

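DN-CLIM back skin at postnatal day 14 (P14) was compared with wild-type (WT) back skin of the same age on 6 of the 22 arrays of the series, 3 per genotype. The members were chosen by their titles. DN-CLIM mice carry a transgene in which the keratin 14 promoter drives a dominant-negative form of the CLIM cofactors, and WT mice were their littermates. All mice were of the CB6F1 strain. The other 16 arrays hold both genotypes at P6 (5 and 5) and P23 (3 and 3) and enter here only for the common estimate of spread and for comparison. The keratin 14 promoter is active in basal keratinocytes, so the transgene was directed to that layer and the follicle's outer root sheath, whereas RNA was taken from whole back skin with dermis, fat and muscle. Per the design text, P14 lies in the growth of the first hair follicles, and each age had 3 to 5 mice per genotype. Which mouse each array came from is not labelled, and p-values here measure only the spread between arrays.

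CLIM cofactors, also called LDB proteins, dimerise and bind the LIM domains of LIM-homeodomain and LIM-only proteins, and in this way join transcription factors on DNA. A dominant-negative CLIM keeps the LIM-binding region but lacks the dimerisation region, and so occupies the LIM domains without joining them. In skin, LIM proteins act in hair follicle stem cells and in keratinocytes. Basal keratinocytes are fixed to the basement membrane by hemidesmosomes, junctions built from integrins, collagen XVII and linker proteins. In a bulk tissue sample, fewer cells of a type and less RNA per cell cannot be told apart.

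The 6 arrays were alike in overall level, with median log2 signals from 7.63 to 7.72. The mean correlation of an array with the others of its group was 0.939 to 0.945 in DN-CLIM skin and 0.953 to 0.954 in WT skin. Judged by Xist and the Y-linked Eif2s3y, each genotype had 2 arrays of female and 1 of male pattern at P14. Skin was recognisable in both genotypes: the hair shaft keratins averaged 13.57 to 13.82 on the DN-CLIM arrays and 13.62 to 13.83 on the WT arrays (log2 signal). The probe sets of the basal keratins Krt5, Krt14 and Krt15 were dim in the series, with mean log2 signals of 5.38, 4.88 and 2.10, so the layer that carries the transgene is followed here through other genes. No probe set is annotated to the transgene. Ldb1, the gene of CLIM2, was at -0.05 (log2 difference, DN-CLIM minus WT, here and below; adjusted p = 0.98 in limma) and Ldb2, the gene of CLIM1, at 0.14 (adjusted p = 0.92), which does not check the genotype.

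Of 12422 probe sets, 13 (0.105%) passed an adjusted p of 0.05 at P14, 7 of them higher (0.0564%) and 6 lower (0.0483%) in DN-CLIM skin. At an unadjusted p under 0.05 there were 832 (6.7%), against 621 given by chance. Probe sets were called bright where their mean over the 22 arrays reached the median of these means (7.67 on the log2 scale), and dim below it. Of the 13, 4 were bright and 9 dim. Differences were small where signals were high: the median size of the log2 difference was 0.13 over the 6211 bright probe sets and 0.38 over the 6211 dim ones, and 25 bright and 851 dim probe sets differed by more than 2-fold. The median standard error (SE) was 0.18 for bright and 0.56 for dim probe sets. The arrays of the 2 genotypes did not overlap at any of the 13, nor at 14.1% of all probe sets (8.32% higher and 5.76% lower). Of the 13, 11 belong to 1 gene and are described below, and 2 (differences of 2.31 and 0.82) match several genes and are not named.

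**Figure D1:**
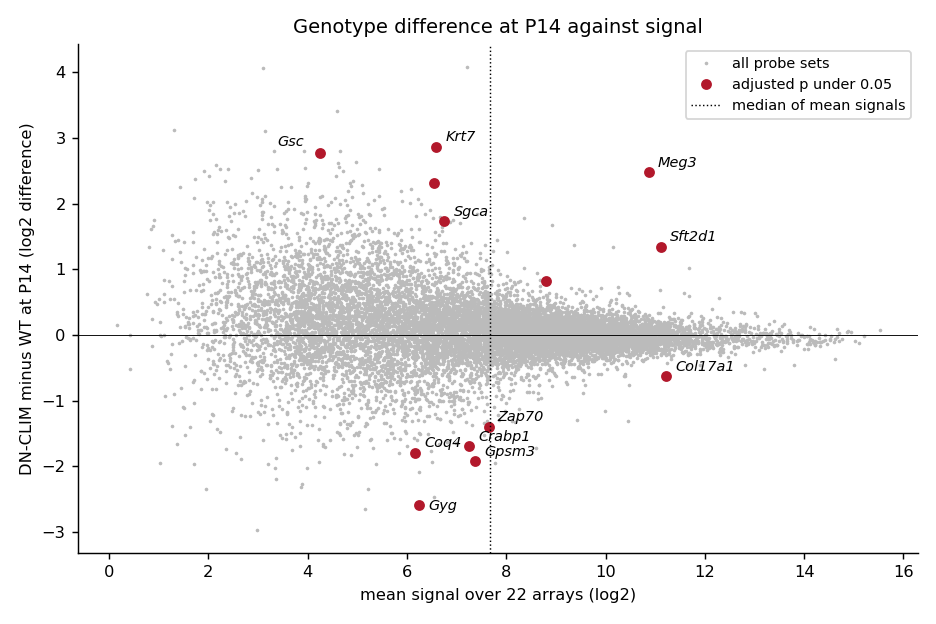
Log2 difference at P14 (DN-CLIM minus WT, vertical) against mean log2 signal over the 22 arrays (horizontal) for each of the 12422 probe sets. Red points are the 13 past the threshold, with the gene where there is 1, and the dotted line is the median signal of 7.67. The cloud widens to the left, and Col17a1, Sft2d1 and Meg3 are the named calls right of the line.

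Col17a1 encodes collagen XVII, the transmembrane collagen of the hemidesmosome. Its log2 signals were 10.52, 10.80 and 10.65 in DN-CLIM skin, against 11.29, 11.27 and 11.28 in WT skin. The WT arrays were nearly equal (SD 0.01), and every DN-CLIM array was below them. Col17a1 fell 1.54-fold (log2 difference -0.62, SE 0.10, adjusted p = 0.0105 in limma). It was also lower at the other ages, by -0.36 at P6 (adjusted p = 0.15) and -0.48 at P23 (adjusted p = 0.1), without passing there. The WT means were 10.78 (P6), 11.28 (P14) and 12.76 (P23).

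Sft2d1 encodes a small membrane protein of vesicle transport at the Golgi. Its log2 signals were 11.85, 12.00 and 11.99 in DN-CLIM skin, against 10.54, 10.57 and 10.70 in WT skin. The 2 sets of arrays were tight and stood more than 1 log2 unit apart. Sft2d1 rose 2.54-fold (1.34, SE 0.22, adjusted p = 0.0105 in limma). At the other ages the difference was -0.40 (P6) and 0.00 (P23). Of 25 genes of transport from the endoplasmic reticulum to the Golgi, Sft2d1 rose, 0 fell and 24 did not pass, and the median of the list was 0.03. Among its members Sec13 (0.23) and Sec23b (0.32), coat proteins of the outbound vesicles, and Rab6a (-0.59), a Golgi GTPase, did not pass.

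Meg3 is a maternally expressed imprinted noncoding RNA. At 1 probe set its log2 signals were 10.51, 9.65 and 10.32 in DN-CLIM skin, against 7.02, 8.97 and 7.05 in WT skin. No DN-CLIM array was as low as any WT array, but WT replicate 2 stood almost 2 log2 units above the other WT arrays. Meg3 rose 5.59-fold at this probe set (2.48, SE 0.35, adjusted p = 0.00334 in limma). A further Meg3 probe set of similar brightness read 9.88, 9.14 and 9.51 in DN-CLIM skin, against 9.53, 9.08 and 9.07 in WT skin, groups that overlap (0.29, SE 0.17, adjusted p = 0.79). The rise thus rests on 1 of 2 probe sets. For the probe set that passed, the difference was 0.37 in P6 skin and 0.01 in P23 skin. Of 25 imprinted genes, Meg3 rose, 0 fell and 24 did not pass. Meg3's partner at the same locus, the paternally expressed Dlk1, was at -0.05.

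The stretches before the annotated starts of these 3 genes are shown because CLIM complexes reach DNA through LIM-homeodomain factors, whose sites hold TAAT, and in blood cells also through GATA factors, whose sites hold GATA. Each is the 250 bases before the start given in a promoter table from RefSeq (GRCm38.p6), on the gene's strand, with TAAT or ATTA and GATAA or TTATC in capitals. They are chr19:47692043-47692292 on the minus strand for Col17a1, chr17:8310853-8311102 on the plus strand for Sft2d1 and chr12:109540746-109540995 on the plus strand for Meg3, of whose 2 starts the more upstream one was taken. For Sft2d1 that start lies inside the annotated gene (chr17:8311088-8327442), so the last printed bases belong to the gene.
Col17a1: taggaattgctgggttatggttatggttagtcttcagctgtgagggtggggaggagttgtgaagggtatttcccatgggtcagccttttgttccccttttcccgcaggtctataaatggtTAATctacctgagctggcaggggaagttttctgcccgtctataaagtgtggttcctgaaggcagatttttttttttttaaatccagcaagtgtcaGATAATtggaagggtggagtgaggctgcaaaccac
Sft2d1: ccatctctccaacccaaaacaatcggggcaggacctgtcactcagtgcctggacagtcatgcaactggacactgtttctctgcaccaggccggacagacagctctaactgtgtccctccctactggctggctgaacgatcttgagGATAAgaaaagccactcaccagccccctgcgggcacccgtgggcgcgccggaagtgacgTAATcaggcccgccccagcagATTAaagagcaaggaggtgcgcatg
Meg3: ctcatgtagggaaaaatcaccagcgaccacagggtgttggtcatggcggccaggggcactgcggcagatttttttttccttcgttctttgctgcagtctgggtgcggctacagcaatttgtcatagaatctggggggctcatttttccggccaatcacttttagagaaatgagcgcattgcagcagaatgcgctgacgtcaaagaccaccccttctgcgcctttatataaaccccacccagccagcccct
Col17a1 and Sft2d1 each held 2 matches to TAAT and 1 to GATAA on either strand, and Meg3 held 0 of each. In Col17a1 the GATAA overlaps 1 TAAT. Of 32851 promoters of the same length, 54.9% held TAAT and 22.6% held GATAA, so these matches are common and say nothing of binding.

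The remaining 8 genes past the threshold were read by dim probe sets, where MAS5 signals are noisiest, and no detection calls were used. Krt7, a keratin of simple epithelia and glands, had log2 signals of 8.02, 8.73 and 8.58 in DN-CLIM skin, against 5.52, 6.01 and 5.21 in WT skin. All DN-CLIM arrays lay above the array medians and all WT arrays well below them. Krt7 rose 7.29-fold (2.87, SE 0.41, adjusted p = 0.0033 in limma). Gsc, the homeobox gene goosecoid, had 5.10, 5.12 and 4.61 in DN-CLIM skin, against 2.20, 2.20 and 2.12 in WT skin. Its 3 WT arrays were near the bottom of the signal range and nearly equal. Gsc rose at this probe set (2.77, SE 0.42, adjusted p = 0.005). Whether it reads RNA of the gene itself or of the transgene in DN-CLIM skin was not tested. Both genes have 1 probe set in the table.

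Crabp1, which encodes a retinoic acid binding protein of the dermal papilla, had log2 signals of 5.22, 5.74 and 4.35 in DN-CLIM skin, against 6.99, 6.48 and 6.90 in WT skin. All DN-CLIM arrays were below all WT arrays, and they were the more spread. Crabp1 fell 3.22-fold (-1.69, SE 0.32, adjusted p = 0.0295 in limma). Zap70, a kinase of the T cell receptor, had 7.79, 8.01 and 8.53 in DN-CLIM skin, against 9.20, 9.62 and 9.70 in WT skin. Zap70 fell 2.63-fold at this probe set (-1.40, adjusted p = 0.0296), while 2 further Zap70 probe sets were at -1.05 and -0.03 and did not pass. The T cell receptor genes Cd3d (-0.11), Cd3e (0.02) and Cd3g (-0.13) were dim and did not pass. Of 14 T cell genes Zap70 alone passed, with 10 higher and 4 lower (median 0.155), and only 2 of the 14 were bright. At 3 of the 14 (21.4%, against 14.3% of all genes) the groups did not overlap, Zap70 lower and Cd28 (1.94, dim) and Lat (0.37) higher.

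For 4 more genes a dim probe set passed while another of the same gene did not. Gyg, the primer of glycogen synthesis, fell at 1 probe set (-2.59, adjusted p = 0.0092 in limma) and was at 0.10 at a brighter one. Coq4, of coenzyme Q synthesis, fell at 1 (-1.79, adjusted p = 0.023) and was at 0.06 at a brighter one. Gpsm3, a regulator of G protein signalling, fell at 1 (-1.92, adjusted p = 0.015) and was at -0.21 at the other. Sgca, which encodes alpha-sarcoglycan of muscle membranes, rose at 1 (1.73, adjusted p = 0.021) and was at -0.57 at a brighter one. A difference for these 4 genes is therefore not shared by their probe sets.

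**Figure D2:**
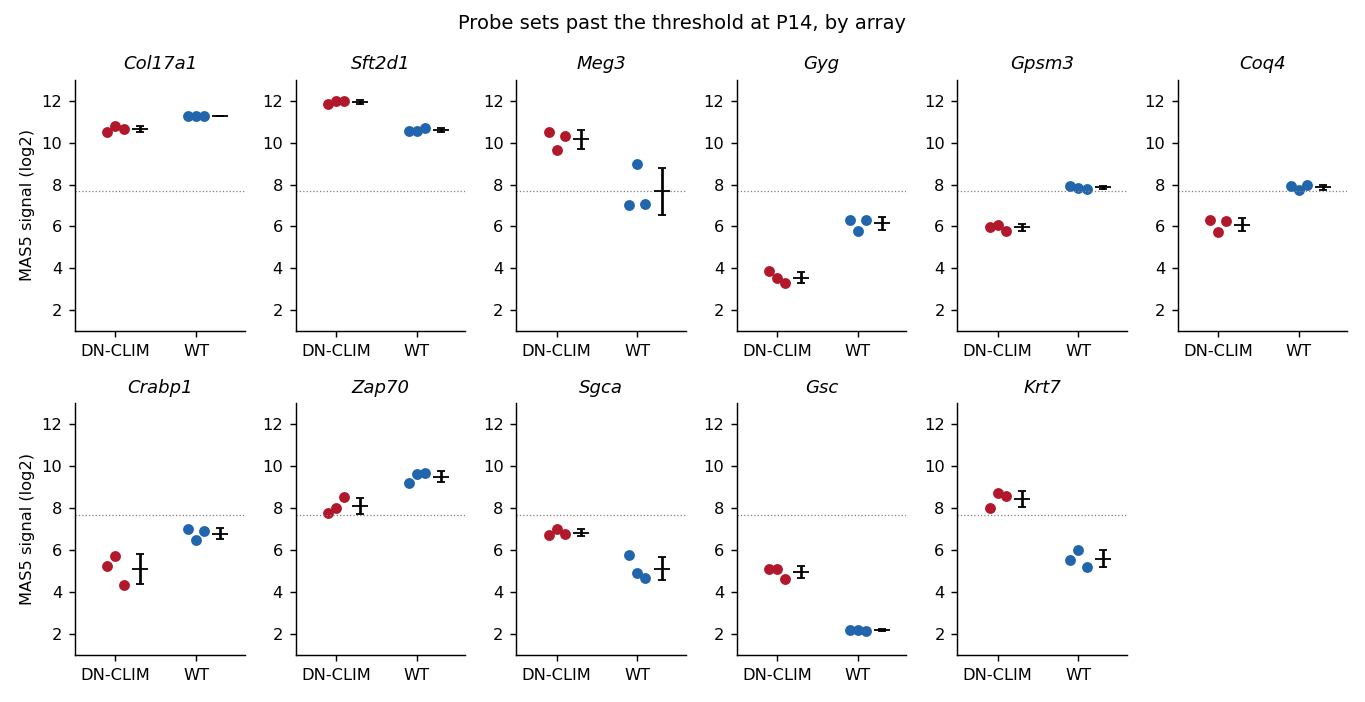
Log2 MAS5 signals of the 11 genes past the threshold in each P14 array, DN-CLIM in red on the left and WT in blue on the right of each panel. Bars give the mean ± SD (n = 3), and the dotted line is the median probe set at 7.67. The groups do not overlap in any panel, and only Meg3 has a WT array far from its group, at 8.97.

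The same genotype comparison at P6 and P23 uses other arrays. Only 4 probe sets (0.0322%) had genotypes that did not overlap in the same direction at all 3 ages, those of Gsc, Krt7, Pdlim4 and Bnc1. The Gsc probe set differed at each age: its mean was 7.52 ± 0.32 (SD, n = 5) in DN-CLIM and 2.18 ± 0.49 (n = 5) in WT skin at P6 (5.33, adjusted p = 1.3e-09 in limma), 4.95 ± 0.29 and 2.18 ± 0.05 (n = 3 each) at P14, and 5.93 ± 0.43 and 1.99 ± 0.37 (n = 3 each) at P23 (3.95, adjusted p = 4.8e-05). In WT skin it stayed between 1.51 and 2.67 on all 11 arrays. On the DN-CLIM arrays it lay between 4.61 and 7.85. The P14 difference was the lowest of the 3, but the change between P14 and P6 (-2.56, adjusted p = 0.23) did not pass.

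Krt7 was higher by 1.28 at P6 and 0.48 at P23 without passing there, beside the 2.87 at P14. From P6 over P14 to P23 its DN-CLIM means were 8.22, 8.44 and 4.78, and its WT means 6.94, 5.58 and 4.29. Pdlim4, a gene for a protein with a PDZ and a LIM domain that binds actin structures, was named after its values were seen. Its log2 signals at P14 were 8.04, 8.20 and 8.23 in DN-CLIM skin, against 7.91, 7.49 and 7.83 in WT skin (0.41, adjusted p = 0.594). A dim second probe set was at -0.68. Bnc1, which encodes the zinc finger protein basonuclin 1 of basal keratinocytes, had 9.20, 9.19 and 9.24 in DN-CLIM skin, against 9.56, 9.77 and 9.62 in WT skin. It was lower at P14 by -0.44 without passing (adjusted p = 0.3), and it passed at P6 (-0.66, adjusted p = 0.0045) and P23 (-0.67, adjusted p = 0.04).

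**Figure D3:**
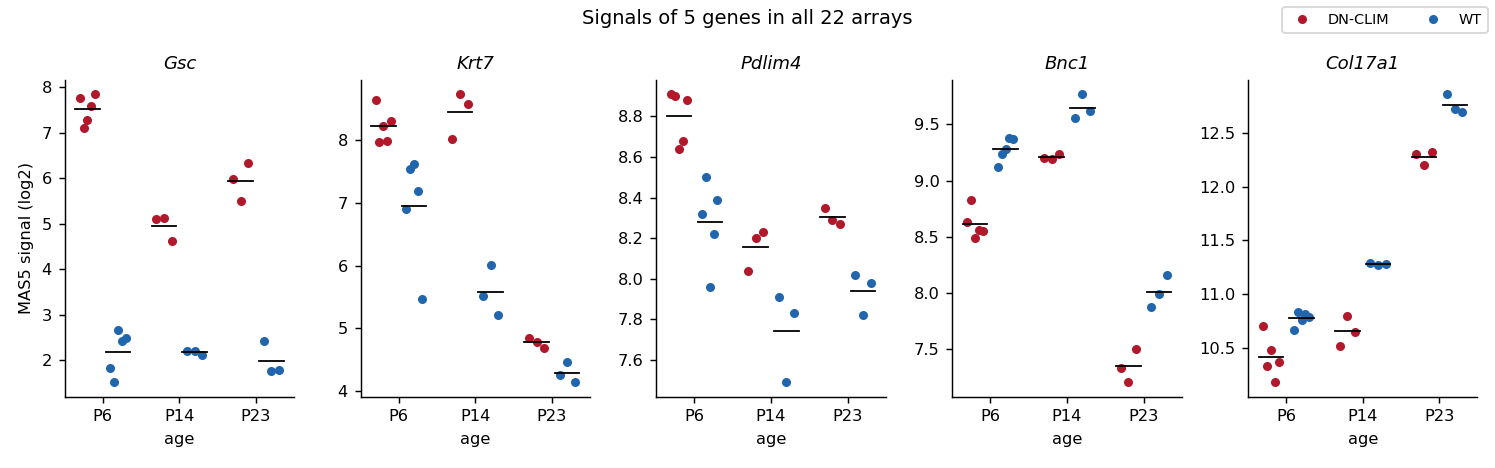
Log2 MAS5 signals of Gsc, Krt7, Pdlim4, Bnc1 and Col17a1 in all 22 arrays by age, DN-CLIM in red left of WT in blue, with lines at the group means and a vertical axis of its own in each panel. The first 4 genes separate the genotypes at every age, and Gsc does so with WT arrays of 1.51 to 2.67 and DN-CLIM arrays of 4.61 to 7.85.

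Basal and hemidesmosome genes did not move as a block. Of 20 measured members Col17a1 fell, 0 rose and 19 did not pass, with 10 higher, 10 lower and a median of 0.00. This list, like the others, was chosen with earlier results of these data known, and Col17a1, Bnc1 and Npnt were named in every case. Shares without overlap are therefore no test of a list. At 8 of the 20 (40%) the groups did not overlap, 3 higher and 5 lower, where 14.3% of all genes did so. Beside Col17a1 and Bnc1 the lower ones were Npnt at -0.73, which encodes the basement membrane protein nephronectin, Col7a1 at -0.18, the anchoring fibril collagen, and Egfr at -0.14. Npnt had 7.47, 7.02 and 7.15 in DN-CLIM skin, against 7.91, 7.83 and 8.09 in WT skin (adjusted p = 0.13), and it fell at P23 (-0.94, adjusted p = 0.023). The higher ones were Cdh3 (0.25), Lama5 (0.17) and Krt14 (0.93, dim). Of other genes of the hemidesmosome and its ligand, Itga6 was at 0.23 (SE 0.23), Itgb4 at -0.02, Plec at -0.01, Lamb3 at 0.05 and Lama3 at 0.06, all with groups that overlap.

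Of 18 CLIM cofactors and LIM partners 0 passed at P14, with a median of -0.08. Lmo4, a LIM-only protein of epithelia and a direct CLIM partner, was the member with the lowest p. Its log2 signals were 9.80, 9.65 and 9.82 in DN-CLIM skin, against 10.40, 10.44 and 10.30 in WT skin, groups that do not overlap. The difference was -0.62 (adjusted p = 0.22), with -0.31 at P6 and -0.50 at P23. The LIM-homeodomain gene Lhx6 was at -0.98 with a dim probe set and overlapping groups. Lhx2, the LIM-homeodomain gene of follicle stem cells, has no probe set annotated to it alone.

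Among genes of the follicle the regulators of the hair matrix, the dividing cells that build the shaft, were mostly lower. Of 15 measured, 11 were lower and 4 higher, 0 passed, and the median was -0.19 against 0.02 over the 8251 genes. The groups did not overlap at 7 of 15 (46.7%), all 7 lower, where 6.42% of all genes were lower without overlap. These were Smad4 (-0.59), the shared transducer of BMP and TGF-beta signals, Elf5 (-0.43, dim), Dlx2 (-0.42), Gata3 (-0.34), Foxn1 (-0.22), the nude gene, Ctnnb1 (-0.19), which encodes beta-catenin, and Id1 (-0.12). The list averaged 10.39, 10.29 and 10.29 on the DN-CLIM arrays, against 10.45, 10.48 and 10.49 on the WT arrays. Lef1, Msx2 and Hr were at 0.06, 0.10 and 0.19 with overlapping groups.

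Among structural genes of the follicle, those of the inner root sheath and hair shaft were also mostly lower, by small medians. Over bright members the median was -0.148 for the inner root sheath and -0.153 for the hair matrix regulators. Of 10 inner root sheath genes 9 were lower and 1 higher (median -0.15), of 10 hair shaft keratins 8 were lower and 2 higher (median -0.08), and of 11 keratin-associated proteins 6 were lower and 5 higher (median -0.06), with 0 passing in each list. In the inner root sheath list the groups did not overlap at 2 of 10 genes (20%, against 14.3% of all genes). These were Gata3 (-0.34), which specifies that layer, and Padi1 (-0.29). Tgm3 was at -0.32 with groups that overlap. Krtap13 was the exception among keratin-associated genes, with 10.64, 10.62 and 10.94 in DN-CLIM skin, against 10.05, 10.11 and 9.90 in WT skin (0.71, adjusted p = 0.2).

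Of 23 bulge genes, markers of the follicle's stem cell niche, 14 were lower and 9 higher (median -0.12), Col17a1 fell and 22 did not pass. At 8 (34.8%) the groups did not overlap, 7 lower and 1 higher, where 14.3% of all genes did so, 6.42% as lower. Fzd2, a Wnt receptor, had 9.18, 9.42 and 9.23 in DN-CLIM skin, against 9.71, 9.87 and 10.01 in WT skin (-0.59, adjusted p = 0.2). The others were Ccn2 (-0.57), S100a4 (-0.56), Nfatc1 (-0.39), a transcription factor that keeps bulge cells quiescent, Tnc (-0.38) and Fzd3 (-0.23), with the Wnt inhibitor Sfrp1 (0.69) on the other side. Fzd2, Fzd3 and Sfrp1 are also counted in the Wnt list below, and Col17a1 in the basal list above. Among members whose groups overlap, Cd34 was at -0.43, Itga6 at 0.23, Cd200 at 0.16 and Dkk3 at 0.15. Gli1 and Fst, which fell at P23 (-1.32 and -1.07, adjusted p = 0.012 for each in limma), were at 0.06 each at P14, and their change between P14 and P23 did not pass (1.38 and 1.13, adjusted p = 0.21 for each).

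Among signalling lists, 0 of 34 BMP and activin genes passed (median -0.03). At 7 (20.6%) the groups did not overlap, 6 lower and 1 higher, where 14.3% of all genes did so. Of the intracellular transducers, Smad1 (-0.38, adjusted p = 0.25), Smad2 (-0.32) and Smad4 (-0.59) were lower without overlap and Smad5 (0.19, dim) higher without overlap. Smad1 read 10.58, 10.78 and 10.82 in DN-CLIM skin, against 11.12, 11.10 and 11.10 in WT skin. A second Smad1 probe set was at -0.27 with groups that overlap. Of 40 Wnt pathway genes 0 passed and 23 were higher (median 0.05). At 8 (20%) the groups did not overlap, 4 higher and 4 lower. The higher ones were the secreted inhibitors Sfrp1 (0.69), Sfrp2 (0.38) and Frzb (0.72, dim) and Apc (0.22), and the lower ones the receptors Fzd2 (-0.59), Fzd3 (-0.23) and Lrp6 (-0.23) and Ctnnb1 (-0.19). Another secreted inhibitor, Dkk2, was at -0.39 with a dim probe set and overlapping groups. The other receptors lay on both sides of 0, also with overlapping groups. Fzd1 (0.04), Fzd4 (0.12), Fzd6 (0.25, dim) and Fzd7 (0.33, dim) were higher. Fzd8 (-0.01), Fzd9 (-0.04, dim) and Lrp5 (-0.17, dim) were lower.

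**Figure D4:**
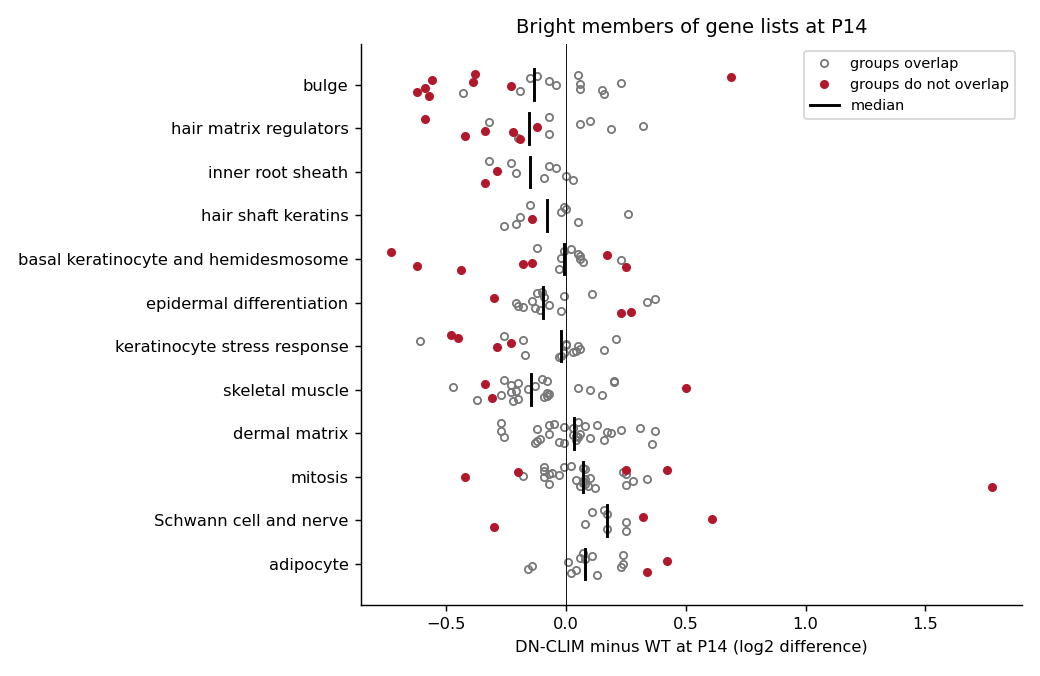
Log2 differences at P14 (DN-CLIM minus WT) of the bright members of 12 gene lists, 1 probe set per gene. Red points are genes whose 3 DN-CLIM and 3 WT arrays do not overlap, open points those that do, and bars are medians. The hair matrix points in red all lie left of 0, and the mitosis point at 1.78 is Aurkb.

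In the lists of epidermal differentiation and keratinocyte stress 0 genes passed. Of 19 genes of epidermal differentiation 14 were lower and 5 higher (median -0.10). The suprabasal keratins Krt1, Krt2 and Krt10 were at 0.34, 0.37 and -0.14 with groups that overlap. At 3 of the 19 (15.8%) the groups did not overlap, Krt77 (-0.30) lower and Alox12b (0.23) and Aloxe3 (0.27) higher, near the 14.3% of all genes. Of 24 keratinocyte stress genes 17 were lower and 7 higher (median -0.03), and Krt6a, Krt16, Krt17 and Sprr1a were all between -0.01 and 0.04. At 5 of the 24 (20.8%, against 14.3% of all genes) the groups did not overlap, all lower, among them the envelope precursor pseudogene Sprr2j-ps (-0.48) and the cytokine Il1a (-0.54, dim). Arg1, an arginase of the epidermis, had 8.52, 9.15 and 8.79 in DN-CLIM skin, against 9.56, 9.82 and 10.02 in WT skin (-0.98, adjusted p = 0.2).

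Genes of dividing cells were spread about 0. Of 36 mitosis genes 24 were higher and 12 lower (median 0.07), and of 34 S phase genes 20 were higher and 14 lower (median 0.05), with 0 passing in either list. Aurkb, the chromosomal passenger kinase, had 8.95, 8.82 and 8.69 in DN-CLIM skin, against 8.37, 6.25 and 6.52 in WT skin. Every DN-CLIM array was above every WT array, and 1 WT array lay near them (1.78, SE 0.40, adjusted p = 0.13). Incenp, which works with Aurkb, was at -0.42. Mki67 (0.24), Top2a (-0.14), Pcna (-0.19) and Rrm2 (-0.58) did not pass. The groups did not overlap at 5 of the 36 mitosis genes (13.9%), 3 higher and 2 lower. They did not overlap at 9 of the 34 S phase genes (26.5%), 6 higher and 3 lower, where 14.3% of all genes did so. The higher ones included Chaf1a (1.28), Pola1 (0.41) and Mcm4 (0.33), and the lower ones were Pcna, Rrm1 (-0.37) and Rpa3 (-0.57).

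In the lists of other cell types of the skin 1 gene passed beside Zap70, namely Crabp1 of the dermal papilla list. Of the 15 genes in that list 7 were higher and 8 lower (median -0.01). At 5 of the 15 (33.3%, against 14.3% of all genes) the groups did not overlap. Crabp1, Igfbp3 (-0.75) and Sox18 (-0.42) were lower, and Vcan (0.55) and Ncam1 (0.61) higher. Of 19 adipocyte genes 17 were higher and 2 lower (median 0.13). At 3 of the 19 (15.8%, near the 14.3% of all genes) the groups did not overlap, namely Lpl (0.42), Pparg (0.73, dim) and Car3 (0.34). The list averaged 9.59, 9.22 and 9.26 on the DN-CLIM arrays, against 9.19, 9.14 and 9.04 on the WT arrays, and DN-CLIM replicate 1 was the highest. Of 19 Schwann cell and nerve genes 15 were higher and 4 lower (median 0.16). Ncam1 had the lowest p, with 8.72, 8.66 and 8.61 in DN-CLIM skin, against 8.31, 8.04 and 7.80 in WT skin (0.61, adjusted p = 0.064). At 4 of the 19 (21.1%, against 14.3% of all genes) the groups did not overlap. Ncam1 and Pmp22 (0.32) were higher, and Erbb3 (-0.30) and Cnp (-1.09, dim) lower. Of 35 skeletal muscle genes 25 were lower and 10 higher (median -0.13), and their mean was 8.56 to 8.82 on the DN-CLIM and 8.59 to 8.85 on the WT arrays. Of 35 dermal matrix genes 17 were higher and 18 lower (median -0.01), and none had groups apart. The part of these cell types in the differences above was not tested.

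Outside the lists the bright genes with the lowest p that did not pass included Slc29a1, a nucleoside transporter, with 8.77, 9.42 and 9.84 in DN-CLIM skin, against 8.05, 8.18 and 7.66 in WT skin (1.38, adjusted p = 0.064). Mgll, the lipase that releases glycerol from monoglycerides, had 10.41, 10.57 and 10.06 in DN-CLIM skin, against 9.71, 9.66 and 9.48 in WT skin (0.73, adjusted p = 0.064). The groups did not overlap for either gene. On the lower side Pcbp4, an RNA-binding protein, was at -0.96, the transcription factor gene Myb at -0.67, and Rflnb, a filamin-binding protein, at -0.62 (adjusted p = 0.13 each). Myb read 7.57, 7.53 and 7.54 in DN-CLIM skin, against 8.12, 8.21 and 8.32 in WT skin, so its arrays were tight within both groups.

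To ask which differences belong to P14, the genotype difference was compared between ages in the same fit. Between P14 and P6, 1 of 12422 probe sets passed (0.00805%), that of Sft2d1 (1.74, SE 0.28, adjusted p = 0.048 in limma), which was lower by -0.40 at P6 and higher by 1.34 at P14. Between P14 and P23, 0 passed, with 601 at an unadjusted p under 0.05, and Meg3 was at 2.47 (adjusted p = 0.21). At P6 and P23, 5 (0.0403%) and 12 (0.0966%) probe sets passed. Of the 13 probe sets that passed at P14, 10 had the same direction at P6 and 11 at P23, where all probe sets had the same direction in 49.8% and 50% of cases. Of the 4 bright calls, 3 had the same direction at P6 and 4 at P23, against 50.9% and 49.8% of bright probe sets. Direction here is the sign alone, whatever the size of the difference. At P23 Sft2d1 (0.00), Meg3 (0.01), Sgca (0.06) and an unnamed call (0.08) were counted as the same direction though they were near 0. Col17a1, Lmo4, Npnt, Bnc1, Arg1 and Rflnb were lower at all 3 ages. Mgll, Myb and Pcbp4 were at -0.02, -0.13 and -0.02 at P6 and at 0.09, 0.15 and 0.41 at P23, but for none of the 3 did the change between ages pass.

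**Figure D5:**
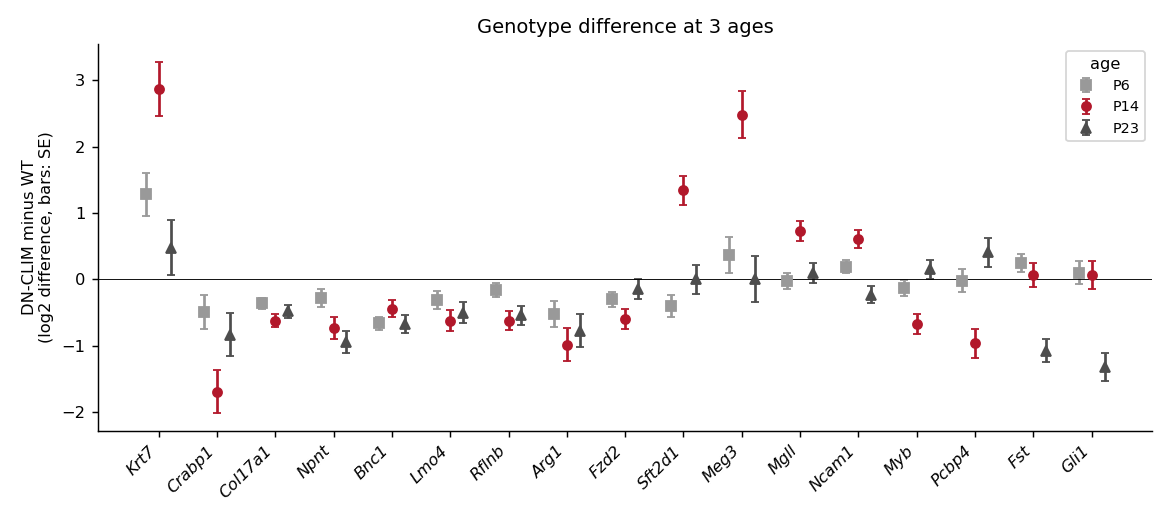
Log2 difference (DN-CLIM minus WT, bars are SE) of 17 genes at P6 (squares), P14 (red circles) and P23 (triangles). Col17a1 sits below 0 at each age (-0.36, -0.62 and -0.48), Sft2d1 and Meg3 lie far from 0 at P14 (1.34 and 2.48), and Gli1 and Fst do at P23 (-1.32 and -1.07).

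With 3 arrays per genotype the smallest exact permutation p is 0.1, so the calls rest on the spread shared by all 22 arrays. In a fit of the 6 P14 arrays alone 2 probe sets passed: Sft2d1 (adjusted p = 0.002 in limma) and the expressed sequence AI506816 (4.08, adjusted p = 0.031), while Col17a1, Krt7 and Meg3 had 0.17, 0.062 and 0.27. Without 1 array the calls of Meg3, Krt7 and Gsc were kept in 6 of 6 runs. Col17a1 did not pass without DN-CLIM replicate 1 (adjusted p = 0.058) or WT replicate 3 (0.06), and Sft2d1 did not pass without DN-CLIM replicate 2 (0.073) or WT replicate 3 (0.055).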

How the data were processed

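Total RNA of back skin was labelled with biotin and hybridised to 1-colour arrays, per the labels' protocols. The deposited table holds 1 linear intensity (MAS5 signal) per probe set and array, made by the authors with MAS5 per the submitters' processing notes; its version was not stated in the labels used here. Trimmed means of 500.25 to 500.34 show that each array had been scaled to one level. The log2 medians of the arrays ran from 7.56 to 7.80, a range under 0.3, and the log2 signals were therefore taken as they were.

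The 66 control probe sets were left out, and 12422 were tested, of which 10833 pair with 1 gene, 396 with several and 1193 with none in the platform annotation. Symbols of 10817 were looked up in RefSeq and 0 changed. limma 3.58.1 in R 4.3.3 (lmFit, eBayes with a variance trend) took all 22 arrays and gave each of the 6 groups a mean, adjusted by Benjamini-Hochberg over the 12422, with a threshold of 0.05. The fit was tested on simulated data. Lists (34) use 1 probe set per gene, the brightest on average, and are described without a test. Named genes are bright calls, the 15 lowest p each way among bright probe sets without overlap, up to 4 members per list with the lowest p, up to 5 per difference between ages, 13 genes given in every case, and any dim call. Further list members, Pdlim4 and AI506816 were chosen after their values were seen. The members and lists were chosen with earlier results of these data known. Alternatives changed the filter, normalization, offset, arrays fitted, variance trend, array weights, replicate block and sex class, or left out 1 array. The number of arrays limits the precision.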

Additional observations from a re-analysis of the deposited data

Results flagged for a closer look

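The genotype effect on Sft2d1 differed between P14 and P6 by a test of the difference itself. The log2 difference, DN-CLIM minus WT, was 1.34 at P14 and -0.40 at P6, a change of 1.74 (SE 0.28, adjusted p = 0.048 in limma), and this was the only probe set of 12422 that passed. All 3 DN-CLIM arrays lay above all 3 WT arrays at P14. The adjusted p was near the threshold and did not stay under it in every other setting, as given below.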

How the results depend on the processing

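The count of 13 at P14 was 4 with bright probe sets only, 2 in a fit of the P14 arrays alone, 24 with array weights and 4 with a replicate block. It was 4 to 27 with 1 array left out: 4 without WT replicate 3 (3 of them among the 13, 0 lower), 6 without DN-CLIM replicate 2 and 27 without DN-CLIM replicate 3. With the block, 2 of the 13 passed, Meg3 and Krt7. Same-numbered arrays of the genotypes were not correlated in their deviations over all probe sets (-0.01, 0.02 and 0.00), so no pairing by number was seen. A pairing that touches few probe sets would not show in these values. For the difference between P14 and P6 the count of 1 was 3 with quantile normalization, 2 with an offset of 13 and 2 with array weights, but 0 with the arrays of these ages only, 0 with the replicate block and 0 with sex class as a covariate (688, 931 and 854 at an unadjusted p under 0.05), and 0 to 8 with 1 array left out, with 0 without WT replicate 1 or DN-CLIM replicate 2 (871 and 772 at an unadjusted p under 0.05) and 8 without DN-CLIM replicate 3. Sft2d1 itself did not pass in any of these 5 settings with a count of 0 (adjusted p = 0.081 to 0.36), nor with no variance trend (0.12) or without WT replicate 2 (0.061) or 3 (0.069), where the 1 call was another probe set; its value stayed between 1.71 and 1.79. For that between P14 and P23 the count of 0 was 2 with the arrays of these ages only, 15 with array weights, and 0 to 2 with 1 array left out. The causes were not tested. Sex class entered the fit for the P14 and P23 arrays only, so the P6 arrays were not adjusted for it. Most P6 arrays read high in both Xist and Eif2s3y. Of the dim calls, Gpsm3, Coq4, Crabp1 and Zap70 each did not pass in 4 of 6 runs without 1 array, Sgca in 3 and Gyg in 1. Without 1 array Ldb1 ranged from -0.27 to 0.06, Gli1 from -0.22 to 0.33, Fst from -0.14 to 0.19 and Dkk2 from -0.77 to 0.17: Ldb1 turned to 0.06 and 0.05 without DN-CLIM replicate 2 or 3, Gli1 to -0.22 and -0.10 without WT replicate 1 or DN-CLIM replicate 3, Fst to -0.14 without WT replicate 2, and Dkk2 to 0.17 without DN-CLIM replicate 1. The other 93 genes followed this way kept their direction in each setting. Genes whose groups do not overlap cannot change direction when 1 array is left out, so part of this was fixed in advance. Under settings other than leaving out an array, 728 of 760 results kept their side of the threshold, 20 lost a call and 12 gained a call. Most genes followed had not passed in the main fit, so the 728 say little about how stable the calls are. Of 475 list medians, 448 moved by less than the spread between arrays.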

Other observations

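Vessel, pigment and immune genes gave 0 calls at P14 beside Zap70. Of 19 endothelial genes 12 were lower and 7 higher in DN-CLIM skin (median log2 difference -0.16), and the arrays did not overlap at 4 (21.1%, against 14.3% of all genes). The receptor Cd93 (-0.35), the transcription factor Sox18 (-0.42) and, with a dim probe set, the VEGF receptor Flt1 (-0.84) were lower, and the water channel Aqp1 (0.20) higher. Of 12 melanocyte genes 8 were higher and 4 lower (median 0.11). Dct, an enzyme of melanin synthesis, had log2 signals of 12.29, 11.85 and 12.51 in DN-CLIM skin, against 11.34, 11.71 and 11.56 in WT skin (0.68, adjusted p = 0.49 in limma). Of 14 mast cell genes 10 were higher (median 0.16), and of 11 erythroid genes 8 were higher (median 0.20), with 0 past the threshold in either list. Of all 8251 genes 4390 were higher (median 0.02). Over bright members alone the median was 0.04 for the mast cell list (5 genes) and 0.08 for the erythroid list (8 genes).

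Of 32 genes of macrophages and antigen presentation 17 were higher and 15 lower (median 0.01). The class II genes H2-DMb1 (-1.13), H2-Aa (-0.36) and Cd74 (-0.32) were on the lower side, while H2-Ab1, H2-DMa and H2-Eb1 were at -0.18, -0.10 and 0.07. The complement genes C1qa (0.30) and C1qb (0.43) were on the higher side. At 3 of the 32 (9.38%, against 14.3% of all genes) the groups did not overlap, H2-DMb1 and H2-Aa lower and C1qa higher. The class I gene H2-K1 was at 0.57 at its brightest probe set (adjusted p = 0.2 in limma) and at 0.43 and -0.03 at others. Igfbp3, which encodes a binding protein of insulin-like growth factors made in the dermal papilla, was lower at both of its probe sets (-0.75 and -1.72, adjusted p = 0.27 and 0.15). The imprinted adaptor gene Grb10 was at 0.78 with groups that did not overlap.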
